A study of Mus musculus with 12 samples.

Results

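The insulin-like growth factor 1 (IGF1) axis was described here through 8 genes, chosen by name: the ligand Igf1, the receptor Igf1r and the binding proteins Igfbp2, Igfbp3, Igfbp4, Igfbp5, Igfbp6 and Igfbp7. All 8 were among the 16425 genes of the table, and all 8 passed the filter on low values, which 14440 genes passed. The RNA came from cultured fibroblasts of wild-type mouse embryos (MEFs). One group had been infected with a guide RNA (sgRNA) against the p53 response element of Pvt1, the site where the transcription factor p53 binds this long noncoding RNA gene (sgPVT1). The other carried a non-targeting guide (sgTom). Both groups, of 3 replicates each, had been kept for 24 h in 0.5 µM doxorubicin, a drug that breaks DNA and so switches on p53. The series has 12 samples in 4 groups, and the 6 untreated samples were not analysed here. The mouse strain, the nuclease used with the guides and whether cells were pooled or cloned are not given in the sources used here, nor is what a replicate number stands for.

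IGF1 binds the receptor tyrosine kinase encoded by Igf1r, which passes the signal through insulin receptor substrates to the PI3K-Akt and MAPK pathways and favours growth and survival. Most IGF in tissue fluid is held by binding proteins, which either block access to the receptor or store the ligand, and which proteases cut to release it. Fibroblasts secrete several of them, and Igf1r is best known in MEFs because cells without it resist transformation by several oncogenes. p53 is known to raise human IGFBP3 and to restrain IGF1R in several cell types. Igfbp3, Igfbp4, Igfbp5 and Igfbp7 have all been described among the proteins that senescent cells secrete.

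The 3 promoter sequences shown belong to the genes whose replicates differed most: Igfbp2, its neighbour Igfbp5 and the ligand Igf1. Each is the strand of the gene, 5′ to 3′, over the 250 bases before the start of transcription in RefSeq, build GRCm38.p6. Capitals mark an E-box (CACGTG) or a CCAAT box, on either strand, so that the Igf1 box reads ATTGG.
Igfbp2: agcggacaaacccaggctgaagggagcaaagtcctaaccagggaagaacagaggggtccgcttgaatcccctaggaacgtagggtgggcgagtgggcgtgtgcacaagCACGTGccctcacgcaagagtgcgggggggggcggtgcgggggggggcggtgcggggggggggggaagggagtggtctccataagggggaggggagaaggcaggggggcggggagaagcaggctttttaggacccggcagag
Igfbp5: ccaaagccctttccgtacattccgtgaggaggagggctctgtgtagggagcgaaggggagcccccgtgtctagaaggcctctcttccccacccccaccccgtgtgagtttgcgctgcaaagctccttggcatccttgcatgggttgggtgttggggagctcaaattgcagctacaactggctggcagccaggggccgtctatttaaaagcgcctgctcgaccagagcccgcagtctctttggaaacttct
Igf1: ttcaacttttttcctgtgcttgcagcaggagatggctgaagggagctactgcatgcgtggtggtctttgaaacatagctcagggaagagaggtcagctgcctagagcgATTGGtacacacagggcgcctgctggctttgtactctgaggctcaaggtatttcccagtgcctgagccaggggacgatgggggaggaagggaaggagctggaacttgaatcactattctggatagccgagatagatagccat
The Igfbp2 window lies at chr1:72824230-72824479 on the + strand, the Igfbp5 window at chr1:72874866-72875115 on the - strand and the Igf1 window at chr10:87860861-87861110 on the + strand. Motifs searched on both strands in 32851 such windows were the E-box, the GC box (GGGCGG), the CCAAT box, the TATA box (TATAAA) and the p53 half-site. The E-box, whose letters Myc and related factors bind, starts 142 bases before the start of Igfbp2 and is found in 6.02% of all windows. The same Igfbp2 window holds 3 GC boxes, which 32.7% of windows hold at least once, and none of its matches overlapped. The Igf1 window holds a CCAAT box, as do 33.8% of windows, and the Igfbp5 window holds none of the motifs searched. Igfbp2 has a second annotated start, whose window is not shown and has no E-box. The Igf1 window lies inside the span of the gene in the GENCODE annotation, which begins at chr10:87858265, so it does not precede the first start there. No window of the 8 genes (9 windows, since Igfbp2 has 2) held the p53 half-site, against 7.13% of all windows. Among the genes not printed, Igfbp7 has 4 GC boxes, Igf1r has 2, Igfbp4 has a TATA box and Igfbp6 has 2 CCAAT boxes and a TATA box. These are matches of letters and not sites of binding.

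Levels of different genes were compared as CPM (reads per 1e6 reads of the library, as scaled by the authors) divided by the kilobases of merged exons of the gene, as mean ± SD over all 6 libraries. Igfbp7, a secreted protein that binds IGF weakly and insulin more readily than its relatives do, was highest at 346 ± 86.3 CPM per kb. Igfbp3, the main IGF carrier of blood, followed at 84.4 ± 21.3, and Igfbp2, a binding protein of fetal tissue, at 76.1 ± 76.2 CPM per kb. Igfbp7 stood apart, since its lowest library (231 CPM per kb) was above the highest of Igfbp3 (105 CPM per kb). The ranges of Igfbp3 and Igfbp2 overlapped, with Igfbp3 above Igfbp2 in 4 of 6 libraries. Igfbp2 was above Igfbp3 in both libraries of replicate number 1, at 211 against 95.7 CPM per kb with sgPVT1 and 124 against 105 with sgTom.

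Further down the order, Igfbp4, which mostly blocks IGF action, averaged 25.9 ± 7.66 CPM per kb. Igfbp2 was above Igfbp4 in 6 of 6 libraries, although the ranges of both genes over the libraries overlapped. Igfbp6, which prefers IGF2, averaged 12.1 ± 2.33 CPM per kb and lay below every library of Igfbp4. Igfbp5, a binding protein that also attaches to extracellular matrix, averaged 10.6 ± 5.07 CPM per kb, and its range overlapped those of Igfbp6 and of Igf1r. The receptor Igf1r averaged 6.97 ± 0.716 CPM per kb, and the ligand Igf1 was lowest at 0.865 ± 0.400 CPM per kb. The highest library of Igf1 (1.54 CPM per kb) was below the lowest of Igf1r (6.35 CPM per kb).

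**Figure D1:**
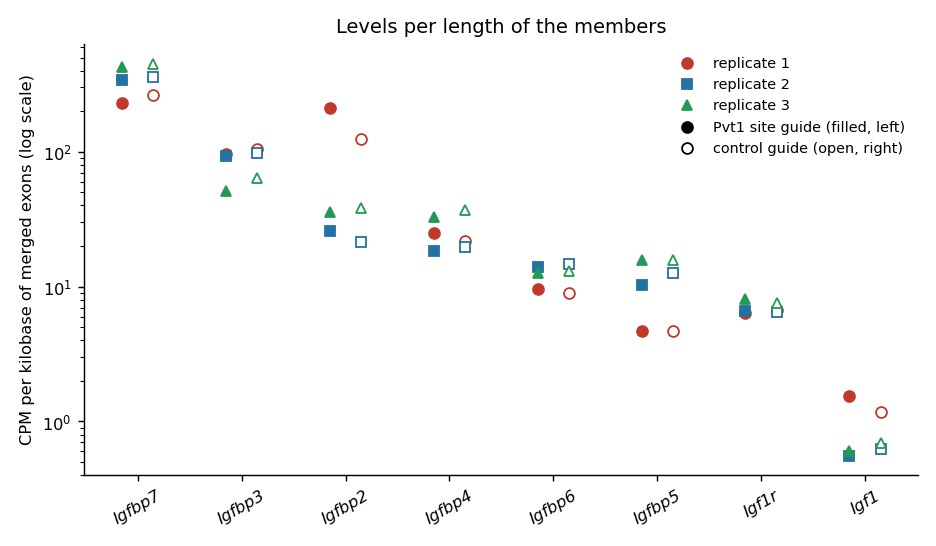
Levels of the 8 genes in CPM per kilobase of merged exons on a log axis, with 1 point per library, coloured by replicate number. Points of sgPVT1 are filled and on the left, and those of sgTom open and on the right. Igfbp7 sits at 346 CPM per kb on average and Igf1 at 0.865, with Igfbp2 spread most widely among the 8.

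Of the summed per-kilobase level of the 6 binding proteins, Igfbp7 made up a median of 68.2% over the 6 libraries, with a range of 40.1% to 74.0%. Igfbp2 made up 4.07% to 36.6%, and Igfbp3 9.0% to 19.8%. Igfbp4, Igfbp5 and Igfbp6 each stayed at or below 6.02%. On the same scale Igf2, the fetal ligand, averaged 157 ± 32.3 CPM per kb, and its clearance receptor Igf2r 103 ± 21.1 CPM per kb.

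The comparison of guides asked whether targeting the p53 site in Pvt1 altered these genes after doxorubicin. The labels were checked first: Pvt1 stood at 8.04, 5.93 and 5.40 CPM with sgPVT1, against 16.4, 11.7 and 12.1 CPM with sgTom. Myc, the gene next to Pvt1, stood at 43.5, 48.6 and 53.8 CPM with sgPVT1, against 28.7, 27.0 and 35.6 CPM with sgTom. The guides did not overlap for either gene. For the IGF genes they overlapped in 8 of 8, where they did not overlap in 3.61% of all genes tested. None of the 8 passed an adjusted p of 0.05 in limma, where 0% of all genes tested passed (0 of 14440, with 50 at an unadjusted p under 0.05, and 0 in edgeR and 1 in DESeq2 on recovered reads). With the replicate number as a block, 0.0346% of all genes passed (5, with 965 at an unadjusted p under 0.05), Pvt1 and Myc among them, and still none of the 8. Fold changes below are sgPVT1 over sgTom on the scale of log2(CPM + 0.5), which understates changes of low genes.

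Igf1 (mm10, GENCODE M21, chr10:87858265-87937042, + strand) stood at 15.3, 5.52 and 6.02 CPM with sgPVT1 in replicates 1, 2 and 3, against 11.6, 6.16 and 6.85 CPM with sgTom. The first replicate was the highest under either guide, and the guides overlapped. The means were 8.94 ± 5.50 CPM with sgPVT1 and 8.20 ± 2.95 CPM with sgTom (SD, n = 3 each), a log2 fold change of 0.02 (95% interval -0.99 to 1.03). In the fit with the replicate number as a block the interval was -0.23 to 0.27. Igf1 rested on 308 to 1011 reads per library. With edgeR and DESeq2 on the recovered reads the log2 fold change was 0.12 in both, and neither called it.

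Igf1r (chr7:67952827-68233668, + strand) stood at 107, 111 and 136 CPM with sgPVT1, against 112, 109 and 128 CPM with sgTom. The third replicate was the highest under either guide, and the others lay within a few CPM of each other. The means were 118 ± 16.0 CPM with sgPVT1 and 116 ± 10.2 CPM with sgTom (SD, n = 3 each), a log2 fold change of 0.01 (95% interval -0.26 to 0.29). This was the narrowest interval among the 8, and with the replicate number as a block it was -0.07 to 0.10.

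Igfbp2 (chr1:72824503-72852474, + strand) stood at 389.5, 48.1 and 66.2 CPM with sgPVT1, against 229, 39.5 and 70.5 CPM with sgTom. Both first replicates were far above the other 4 libraries. The means were 168 ± 192 CPM with sgPVT1 and 113 ± 102 CPM with sgTom (SD, n = 3 each), a log2 fold change of 0.32 with the widest interval of the 8 (-1.96 to 2.60). In the fit with the replicate number as a block the interval was -0.49 to 1.13. Within replicate numbers, sgPVT1 over sgTom was 1.70, 1.22 and 0.938, so the direction differed between the pairs. With edgeR and DESeq2 on the recovered reads the log2 fold change of Igfbp2 was 0.57 in both, and neither called it. Both tools compare mean levels, while limma compares means of log2 values. The authors' deposited table gives Igfbp2 a log2 fold change of 0.571, an unadjusted p of 0.384 and an FDR of 1.

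Igfbp3 (chr11:7206086-7213923, - strand) stood at 299, 291 and 161 CPM with sgPVT1, against 328, 304 and 200.5 CPM with sgTom. Igfbp7 (chr5:77349240-77408041, - strand) stood at 279, 414 and 513 CPM with sgPVT1, against 319, 435 and 545 CPM with sgTom. Both genes were lower with sgPVT1 within each of the 3 replicate numbers, where 14.4% of all genes tested were. They were the only members of the 8 with 1 direction in all 3 pairs, where 28.8% of all genes had 1 direction. Their ratios of sgPVT1 over sgTom were 0.914, 0.957 and 0.805 for Igfbp3 and 0.874, 0.952 and 0.940 for Igfbp7.

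For Igfbp3 the means were 251 ± 77.5 CPM with sgPVT1 and 277 ± 67.7 CPM with sgTom (SD, n = 3 each), a log2 fold change of -0.17 (95% interval -0.87 to 0.54). For Igfbp7 they were 402 ± 117 CPM with sgPVT1 and 433 ± 113 CPM with sgTom (SD, n = 3 each), a log2 fold change of -0.12 (95% interval -0.78 to 0.54). With the replicate number as a block the intervals were -0.27 to -0.07 for Igfbp3 and -0.19 to -0.04 for Igfbp7, with limma adjusted p = 0.586 and adjusted p = 0.599. Neither gene passed the threshold in that fit. Exact sign flips within pairs gave p = 0.25 for both genes, the smallest p that 3 pairs allow. With replicate number 2 left out of the block fit, Igfbp3 had a log2 fold change of -0.22 and a limma adjusted p = 0.00199, in a fit with 1 residual degree of freedom that called 160 genes. The span of Igfbp7 overlaps Polr2b and an antisense gene on the other strand, and that of Igf1 overlaps the antisense gene Igf1os. Whether counting used strand is not given, so reads in such overlaps cannot be told apart.

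Igfbp4 (chr11:99041244-99054392, + strand) stood at 109.6, 80.7 and 146 CPM with sgPVT1, against 96.7, 87.4 and 165 CPM with sgTom. Igfbp5 (chr1:72857932-72874884, - strand) stood at 28.0, 61.5 and 94.97 CPM with sgPVT1, against 28.2, 76.3 and 94.7 CPM with sgTom. Igfbp6 (chr15:102144362-102149511, + strand) stood at 10.7, 15.6 and 13.97 CPM with sgPVT1, against 10.01, 16.3 and 14.4 CPM with sgTom. Under either guide Igfbp4 was lowest in replicate 2 and highest in replicate 3, and Igfbp5 and Igfbp6 were lowest in replicate 1. The guides overlapped in all 3 genes. The log2 fold changes were -0.03 for Igfbp4 (95% interval -0.76 to 0.69), -0.10 for Igfbp5 (-1.52 to 1.31) and -0.00 for Igfbp6 (-0.52 to 0.51). With the replicate number as a block the intervals were -0.20 to 0.13 for Igfbp4, -0.25 to 0.04 for Igfbp5 and -0.14 to 0.13 for Igfbp6. Exact permutation tests of 3 libraries against 3, whose smallest possible p is 0.10, gave two-sided p from 0.5 for Igfbp3 to 1.0 for Igf1 over the 8 genes.

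**Figure D2:**
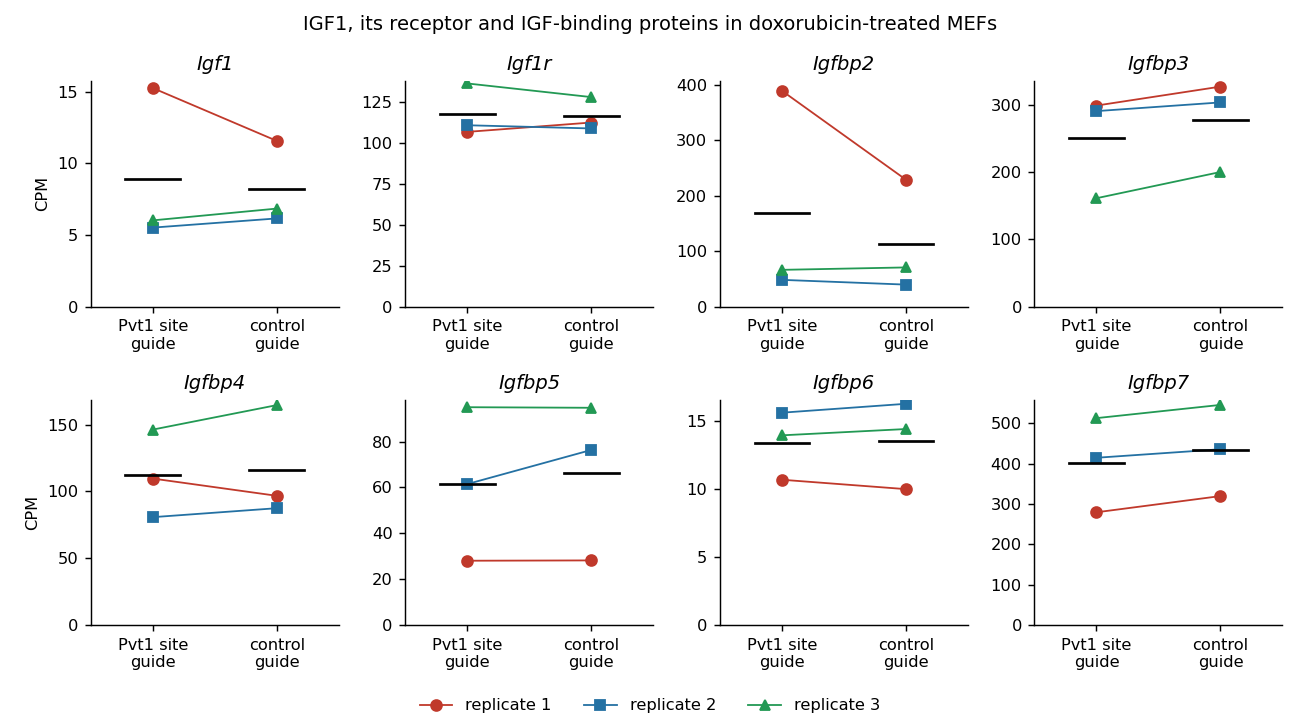
CPM of each of the 8 genes in the 6 doxorubicin-treated libraries, 1 panel per gene, sgPVT1 left and sgTom right. Lines join equal replicate numbers, and bars mark the mean of each guide. The guides overlap in all 8 panels. In replicate 1 of both guides, Igf1, Igfbp2 and, by little over replicate 2, Igfbp3 are highest. Igfbp5, Igfbp6 and Igfbp7 are lowest there.

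**Figure D3:**
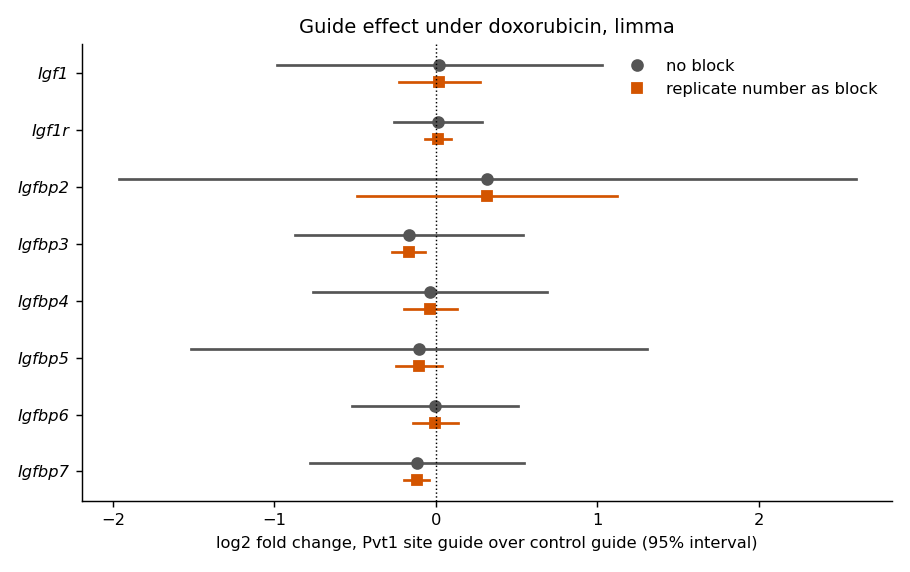
Log2 fold change of sgPVT1 over sgTom for the 8 genes with 95% intervals, without and with the replicate number as a block. Every interval without the block includes 0, and with the block those of Igfbp3 (-0.27 to -0.07) and Igfbp7 (-0.19 to -0.04) do not, though neither gene passes the adjusted threshold.

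All 8 genes differed between the replicate numbers. In a limma F-test of the replicate number beside the guide, 8 of 8 genes passed an adjusted p of 0.05, where 48.6% of all genes tested passed. The number held 92.9% (Igf1r) to 98.5% (Igfbp5) of the variance of log2(CPM + 0.5) over the libraries, and the guide at most 5.06% (Igfbp3). Over all genes tested the number held 71.6% on average, the guide 10.8% and the residual 17.6%. Whether the numbers stand for embryos, cultures or days is not given in the labels, so these cannot be told apart.

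**Figure D4:**
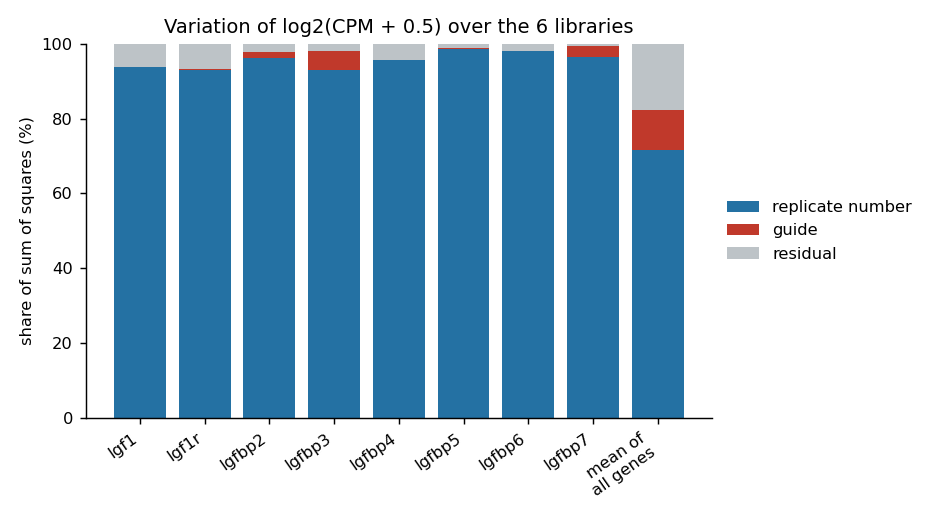
Share of the variance of log2(CPM + 0.5) over the 6 libraries held by the replicate number, the guide and the residual, for the 8 genes and as the mean over all genes tested. The number holds over 92% in each of the 8 genes and 71.6% on average over all genes.

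Igfbp2 differed most, with means of 309 CPM in replicate number 1, 43.8 CPM in number 2 and 68.4 CPM in number 3 (limma adjusted p = 0.0222). The highest number was 7.06-fold above the lowest, and the span of its 6 libraries, 3.28 on the log2 scale, exceeded that of 99.9% of genes tested. Igf1 had means of 13.4, 5.84 and 6.43 CPM in numbers 1, 2 and 3 (limma adjusted p = 2.30e-04). Both libraries of number 1 were above the other 4 for Igf1 and Igfbp2, as for 25.7% of all genes.

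Igfbp5 went the other way, with means of 28.1, 68.9 and 94.8 CPM in numbers 1, 2 and 3 (limma adjusted p = 2.75e-06). Igfbp7 had means of 299, 425 and 529 CPM (limma adjusted p = 1.36e-07), and Igfbp6 of 10.4, 16.0 and 14.2 CPM (limma adjusted p = 1.57e-04). For these 3 genes both libraries of number 1 were below the other 4, as for 25.3% of all genes. Igfbp2 and Igfbp5 are neighbours on chromosome 1, facing each other with 5.46 kb between their ends. Among the 28 pairs of the 8 genes they had the most unlike profiles over the libraries, with a root mean square distance of 1.88 on the log2 scale.

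The remaining genes were set apart by the other numbers. Igfbp3 had means of 314, 298 and 181 CPM in numbers 1, 2 and 3 (limma adjusted p = 3.37e-06). Igfbp4 had means of 103, 84.1 and 155 CPM (limma adjusted p = 5.45e-04), and Igf1r of 109, 109.6 and 132 CPM (limma adjusted p = 6.44e-04). Number 3 was thus lowest for Igfbp3 and highest for Igfbp4 and Igf1r. In all, 5 of the 8 genes spanned at least 1 on the log2 scale over the libraries, where 6.81% of all genes did.

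Leaving out a replicate number left 2 of the 8 genes short of the threshold each time, in fits with 1 residual degree of freedom. Without number 1 these were Igf1 and Igfbp6 (limma adjusted p = 0.418 and 0.140). Without number 2 they were Igfbp2 and Igfbp4 (0.135 and 0.117), and without number 3 Igf1r and Igfbp3 (0.972 and 0.292). Igfbp5 and Igfbp7 passed in each case. Of all 14440 genes tested, 3068, 7027 and 5046 passed without numbers 1, 2 and 3, against 7022 with all numbers.

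Markers of other cell types also differed between replicate numbers. Of 15 macrophage markers 14 were tested, and 11 of these passed the limma F-test of the number, where 48.6% of all genes tested did. Both libraries of number 1 were above the other 4 for 13 of the 14, as for Igf1 and Igfbp2, where they were for 25.7% of all genes. Their summed level was 333, 100.9 and 128 CPM with sgPVT1 in replicates 1, 2 and 3, against 214, 108 and 127 CPM with sgTom. The most abundant, the lysozyme gene Lyz2, stood at 140, 32.7 and 44.2 CPM with sgPVT1, against 83.1, 33.6 and 43.5 CPM with sgTom. Cx3cr1 was lowest, at 0.206 to 0.589 CPM. Within numbers 1, 2 and 3 the summed level with sgPVT1 over sgTom was 1.55, 0.937 and 1.01. The same ratios were 1.32, 0.896 and 0.880 for Igf1 and 1.70, 1.22 and 0.938 for Igfbp2.

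Of 5 adipocyte markers 3 were tested. Both libraries of number 1 were above the other 4 for all 3, where they were for 25.7% of all genes. Their list summed to 91.9, 23.8 and 27.9 CPM with sgPVT1, against 80.3, 24.6 and 27.7 CPM with sgTom. The ratio of these sums, sgPVT1 over sgTom, was 1.14, 0.969 and 1.01 in numbers 1, 2 and 3. Lpl, the lipoprotein lipase gene, stood at 42.1, 4.87 and 3.64 CPM with sgPVT1, against 31.8, 4.88 and 4.45 CPM with sgTom. The defining fat gene Adipoq stayed at 0.26 CPM or below in every library. The summed level of 10 fibroblast markers ranged from 37018 to 38125 CPM with sgPVT1, against 38244 to 38811 CPM with sgTom, and most of it was Fn1. Of these 10, 7 passed the F-test of the number, where 48.6% of all genes tested did, and went both ways. Thy1 had means of 206, 409.6 and 390.1 CPM in numbers 1, 2 and 3, and Lum of 21.7, 7.55 and 4.78 CPM. Pdgfra, with the smallest guide p of the 10, stood at 29.6, 30.2 and 31.4 CPM with sgPVT1, against 37.7, 32.0 and 39.2 CPM with sgTom. Its guides did not overlap, as for 3.61% of all genes tested, and its log2 fold change was -0.25. The limma unadjusted p was 0.0295 without the block and 9.78e-04 with it (adjusted p = 0.538 with the block). Markers of endothelium (4 tested), epithelium (2), skeletal muscle (2), cartilage and bone (5) and nerve (4) had 0 genes past the guide test in either fit, as had the macrophage, adipocyte and fibroblast lists. The number passed in 4 of the 4 endothelial, 1 of the 2 epithelial, 2 of the 2 muscle, 4 of the 5 cartilage and bone and 2 of the 4 nerve markers, and in 3 of the 3 adipocyte markers. Over all genes tested it passed in 48.6%. The part of these other cell types in the levels of Igf1 and Igfbp2 was not tested. In bulk RNA, fewer cells of a type and less RNA per cell cannot be told apart.

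The genes whose profiles over the 6 libraries were most like each widely varying member, of 14439 searched, are given as a description. Closest to Igf1 were Sirpa, Ptprc and Tm6sf1, with root mean square distances of 0.0766, 0.0829 and 0.0832 on the log2 scale. Ptprc, the leukocyte surface phosphatase CD45 and a listed macrophage marker, stood at 4.31, 1.09 and 1.15 CPM with sgPVT1, against 2.93, 1.38 and 1.52 CPM with sgTom. Sirpa, a receptor of myeloid cells for CD47, stood at 55.6, 23.2 and 25.3 CPM with sgPVT1, against 49.1, 23.3 and 27.2 CPM with sgTom. Both were highest in the first replicate of either guide, which follows from their choice by likeness to Igf1.

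Igfbp2 had looser matches, the closest being Cd36, a fatty acid and lipoprotein receptor (distance 0.195), Cdsn (0.241) and Chdh (0.254). Cd36 stood at 37.4, 4.35 and 8.65 CPM with sgPVT1, against 22.5, 4.33 and 8.56 CPM with sgTom. Rgs16, a regulator of G protein signalling, was closest to Igfbp5 (distance 0.111), at 17.4, 39.2 and 69.5 CPM with sgPVT1, against 17.8, 48.3 and 71.8 CPM with sgTom. Itgb4 and Gm12840 followed at 0.129 and 0.135. Cav3 and Sema3d were among the closest to Igfbp3 (0.0852 and 0.0968), after Pcdhac2 (0.0745), whose reads share exons with the rest of the protocadherin alpha cluster and are uncertain. Cables1, Irgm2 and Slco2a1 were closest to Igfbp4 (0.0679, 0.0794 and 0.0966). Chdh, Pcdhac2, Cav3 and Cables1 are low genes too, with the same limit on their distances.

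**Figure D5:**
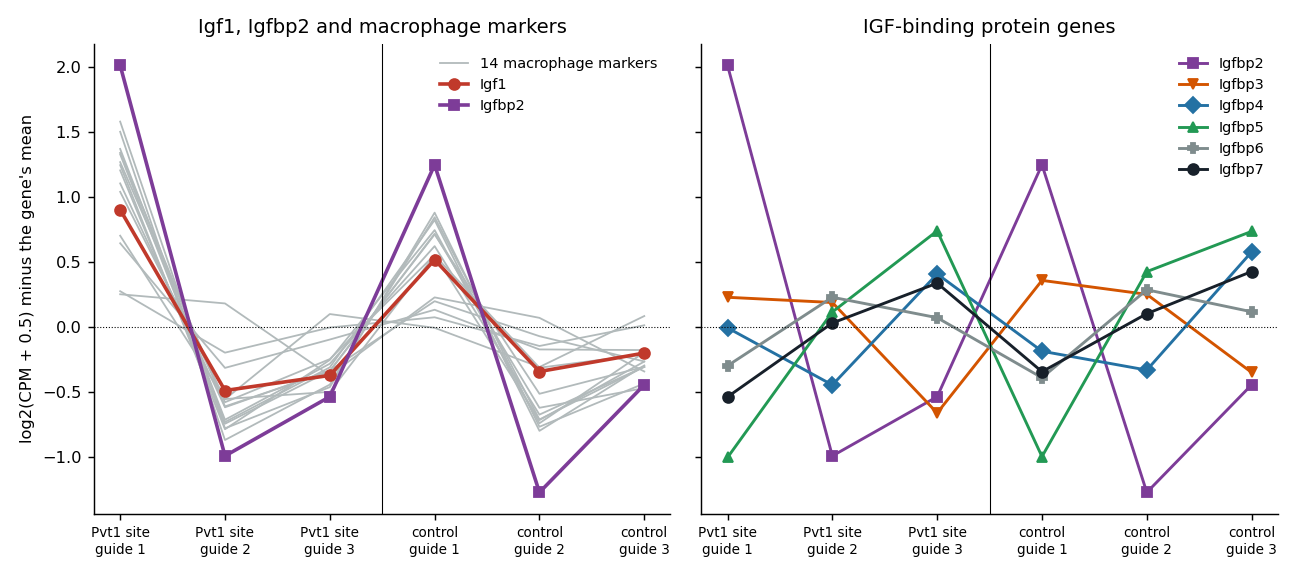
Log2(CPM + 0.5) centred on each gene's mean over the 6 libraries. The left panel shows Igf1 and Igfbp2 with the 14 tested macrophage markers, and the right panel the 6 binding protein genes. Within each panel the sgPVT1 libraries are on the left and the sgTom libraries on the right. Igf1, Igfbp2 and, by little over replicate 2, Igfbp3 peak in replicate 1 of both guides. Igfbp5, Igfbp6 and Igfbp7 are lowest there.

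Beyond the 8 genes, 25 genes of the IGF system were listed (other ligands, receptors, proteases of binding proteins, adaptors and Igf2 mRNA-binding proteins). Of these, 19 were tested, and 0 passed the guide test with or without the block; 11 were higher and 8 lower with sgPVT1, with a median log2 fold change of 0.01. Over all genes tested 7176 were higher and 7264 lower, with a median of -0.00. The replicate number was past the threshold in 14 of the 19, where it was in 48.6% of all genes tested. Both libraries of number 1 were below the other 4 in 11 of the 19, where they were in 25.3% of all genes tested. They were above the other 4 in 4 of the 19, where they were in 25.7% of all genes tested.

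Igf2 stood at 711, 881 and 1038 CPM with sgPVT1, against 648, 990.2 and 1109.7 CPM with sgTom. Igf2r, which takes IGF2 to lysosomes, stood at 711, 1001 and 1175 CPM with sgPVT1, against 716, 1036 and 1095 CPM with sgTom. Both genes of the IGF2 side were lowest in replicate number 1 under either guide, as Igfbp7 was. The log2 fold changes were -0.04 for Igf2 and 0.01 for Igf2r. The insulin receptor gene Insr averaged 34.7 ± 3.35 CPM with sgPVT1 and 34.1 ± 1.47 CPM with sgTom (SD, n = 3 each). Kazald1, related to the binding proteins, had a log2 fold change of -0.15.

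Binding proteins are cut by the pappalysins, made from Pappa and Pappa2, and by the serine protease HTRA1. Their log2 fold changes were -0.03, -0.10 and -0.09. Htra1 had the smallest p of the list in limma without the block (unadjusted p = 0.281). The stanniocalcins inhibit the pappalysins. Stc1 stood at 6.98, 10.5 and 23.5 CPM with sgPVT1, against 6.84, 11.6 and 21.5 CPM with sgTom. Stc2 stood at 56.5, 27.9 and 29.4 CPM with sgPVT1, against 56.5, 34.6 and 34.3 CPM with sgTom. Stc1 was lowest and Stc2 highest in number 1 under either guide. Stc2 had a log2 fold change of -0.17 and the smallest p of the list in limma with the block (unadjusted p = 0.0110). Igf2bp2 and Irs4 came after Htra1 without the block, with log2 fold changes of 0.09 and 0.13.

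Downstream of the receptor, 39 genes of the PI3K-Akt, mTOR and MAPK pathways were tested. None passed the guide test with or without the block, 22 were higher and 17 lower, and the median log2 fold change was 0.00. Rps6kb2, Map2k1 and Eif4ebp1 were among those with the smallest p without the block, with log2 fold changes of 0.09, -0.06 and 0.06. The replicate number passed in 20 of the 39 (51.3%), close to its share among all genes.

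Of 18 other factors that senescent cells secrete, 16 were tested, and 0 passed the guide test in either fit. Of the tested factors 5 were higher and 11 lower with sgPVT1, with a median log2 fold change of -0.05. Hgf, Mmp3, Cxcl5 and Tnfrsf11b had the smallest p without the block, with log2 fold changes of -0.25, -0.14, -0.19 and -0.15. With the block it was the matrix metalloproteinase genes Mmp13 and Mmp10 (limma unadjusted p = 0.00107 and 0.00255), with log2 fold changes of -0.19 and -0.23. Both were lower with sgPVT1 in all 3 pairs, and neither passed the adjusted threshold. The replicate number passed in 16 of 16 of them, as it did in 8 of 8 IGF genes, where it did in 48.6% of all genes tested. Among 20 genes of cell division 0 passed the guide test in either fit, and 10 were higher and 10 lower. The replicate number passed in 11 of these 20 (55%), close to the 48.6% of all genes tested. Birc5, Kif11, Kif2c and Ndc80 had the smallest p without the block, with log2 fold changes of -0.18, -0.18, -0.16 and -0.13.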

How the data were processed

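Libraries were made from polyadenylated RNA with a stranded TruSeq kit, per the labels' protocols. The submitters' processing notes name edgeR 3.22.3, HTSeq 0.6.1, StringTie 1.2.4, TopHat2 2.0.14 and build mm10, with no role, order or strand setting. The deposited CPM were made by the authors with edgeR, per the file headers. The authors' log2 fold changes and the authors' p-values and FDR were deposited in the same table, without the name of the test. The 2 entries that collect reads of no gene (0.543% to 1.58% ambiguous, 8.06% to 8.94% outside genes) were removed, and 6 per-sample columns of pseudo-counts were not used. Of 16425 genes, 15867 matched GENCODE M21 by symbol, 9 RefSeq only and 549 neither.

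All CPM were whole reads within 0.01, giving 50091418 to 66132317 reads in genes per library. The test was limma 3.58.1 (trend, robust) on log2(CPM + 0.5) of genes that reached 0.5 CPM in 3 or more libraries, with Benjamini-Hochberg adjustment over all 14440 and a threshold of 0.05. The fit without a block has 4 residual degrees of freedom, and the fit with the replicate number as a block, from which the F-test comes, has 2. Deviations from group means correlated at 0.869, 0.739 and 0.817 between libraries of equal number and at most at 0.203 between others, so the numbers in the labels pair the libraries. The labels call them biological replicates and do not say from which cultures or embryos they came, so p-values describe these samples only. Without a block, p-values set the guide difference against the spread between libraries of the same guide. In the block fit, those of the guide and of the F-test rest on how far the guide difference varies between numbers. Each number has a single library of each guide, and whether these are independent samples is not given. Single genes also had exact tests, both two-sided.

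The 8 genes and the lists were chosen with earlier results of these data known. Named genes are the 8, the ligands, receptors and proteases of the network, up to 4 genes per list with the smallest p without the block, and the 3 profiles most like each gene that spans at least 1 on the log2 scale. Stc1, Stc2, Kazald1, Mmp10, Mmp13 and the marker genes were named after their values were seen. Lengths are merged GENCODE exons. Promoters are from RefSeq. Alternatives were other scalings, filters and pseudocounts, limma without trend, edgeR 4.0.16 and DESeq2 1.42.0 on the recovered reads, and each library or replicate number left out. The scripts were tested on simulated data.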

Additional observations from a re-analysis of the deposited data

How the results depend on the processing

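No alternative called any of the 8 genes for the guide except 1: Igfbp3 in the replicate block fit without number 2. Of 224 values of the 8 genes under alternatives, 198 kept direction and side of the threshold and 25 changed sign, all with a library or replicate number left out. Over those, the log2 fold changes ranged from -0.42 to 0.29 (Igf1), -0.095 to 0.084 (Igf1r), -0.61 to 1.02 (Igfbp2), -0.39 to 0.12 (Igfbp3), -0.25 to 0.24 (Igfbp4), -0.63 to 0.37 (Igfbp5), -0.20 to 0.15 (Igfbp6) and -0.32 to 0.12 (Igfbp7). In the block fit, sign changes were -0.16 for Igf1 without number 1, -0.025 for Igf1r without number 3, and 0.0050 and 0.033 for Igfbp4 and 0.023 and 0.017 for Igfbp6 without numbers 2 and 3. With edgeR the values were 0.57 for Igfbp2, against 0.32, and 0.12 for Igf1, against 0.02. Over all genes, the guide calls were 0, against 1 with DESeq2 (Pvt1) and 5 with the replicate block. They were 0 to 0 with a library left out and in every other unblocked setting. The block's 5 calls became 0 without limma's trend and 8, 160 and 9 without number 1, 2 and 3. The calls for the replicate number, 7022 of 14440, were 4328 without trend and 3068 to 7027 with a number left out. Of the 8 genes, 7 passed without trend (Igf1r, adjusted p = 0.0517 in limma, did not) and 6 to 6 with a number left out. Network calls stayed at 0 to 0. Ordered by CPM without length, Igf1r came 4th, Igfbp4 5th and Igfbp6 7th. Igf1 and Igfbp6, at 308 to 1016 reads per library, carry the largest counting error. The causes of these shifts were not tested.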
